A study of Homo sapiens with 9 samples.

Results

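The genes described here carry glucose into the cell, break it down to pyruvate and lactate, and sense or answer low oxygen. They were 44 listed genes of glycolysis, glucose transport and hypoxia, matched by gene symbol to rows of an RNA-seq table of 63657 Ensembl genes in MDA-MB-231, an established human breast cancer line. All 44 had a row. Their roles divided them into 3 glucose transporters, 16 genes of glycolytic steps, 3 PFKFB regulators, 6 genes of pyruvate and lactate handling, 7 regulators of the hypoxia-inducible factors (HIF) and 9 other genes listed as hypoxia targets. RNA was measured in 2 libraries of cells infected with a short hairpin RNA against LOXL2 (shLOXL2) and in 2 libraries of cells infected with a control hairpin (shControl). LOXL2 is a lysyl oxidase-like enzyme to which the study attributes oxidation of histone H3 at lysine 4. Both groups are the same line and carry a hairpin. The labels do not state the hairpin sequences, whether the libraries came from separate infections, the time after infection or the oxygen level, so p-values measure only the spread between these libraries, which may be technical. The ChIP-seq and ATAC-seq samples of the series were not used here.

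Glucose enters through facilitative transporters, is trapped by hexokinase and is committed to glycolysis by phosphofructokinase. Tumour cells commonly turn much of the resulting pyruvate into lactate even with oxygen present, and export it with a proton. HIF factors pair an oxygen-sensitive alpha subunit, such as HIF1A or EPAS1, with ARNT. Prolyl hydroxylases of the EGLN family mark the alpha subunits when oxygen is present, and VHL then directs their degradation, so HIF activity is set largely at the protein level. HIF complexes are known to switch on most glycolytic genes, SLC2A1, VEGFA, ADM, CA9 and the hydroxylases EGLN1 and EGLN3.

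The hairpin target LOXL2 had levels of 15.2 and 12.1 FPKM in shLOXL2 cells, against 85.5 and 84.5 FPKM in shControl cells. The unit FPKM divides the fragments of a gene by its length in kilobases and by the mapped total of its library, so levels can be compared between genes. The log2 change of LOXL2 came to -2.56 ± 0.12 (SE, limma adjusted p = 0.0124, with 2 libraries in each group). It passed without either shLOXL2 library and not without shControl replicate 1 (adjusted p = 0.157) or shControl replicate 2 (adjusted p = 0.154). FPKM sums were 1330441 and 1369375 in shLOXL2 libraries and 1244377 and 1221571 in shControl libraries, and the read depth behind them is unknown. Mitochondrial transcripts took 22.8% and 22.1% of the FPKM sum in shLOXL2 libraries and 20.4% and 18.5% in shControl libraries, groups that did not overlap, and their part in the results was not tested. Of the markers listed for the line, VIM stood at 2104 and 2081 FPKM in shLOXL2 cells and 2011 and 2053 FPKM in shControl cells. In the receptor list, ESR1 and PGR, which this line lacks, stayed at or below 0.0822 FPKM. ERBB2 (HER2), of the same list, stood at 29.8 and 26.1 FPKM in shLOXL2 and 27.6 and 26.4 FPKM in shControl cells. Other markers of the line stood apart between the groups. KRT19 was at 335 and 352 FPKM in shLOXL2 and 172 and 168 FPKM in shControl cells, KRT18 at 196 and 206 FPKM in shLOXL2 and 158 and 154 FPKM in shControl cells, and CAV1 and AXL were also higher in both shLOXL2 libraries. CD44 was at 349 and 340.04 FPKM in shLOXL2 and 457 and 447 FPKM in shControl cells, and EPCAM at 4.52 and 5.07 FPKM in shLOXL2 and 6.85 and 6.69 FPKM in shControl cells. Of 10 fibroblast markers 2 reached a mean of 1 FPKM, COL1A1 and PDGFRB, and the summed level of the list was 12.4 and 10.2 FPKM in shLOXL2 and 6.07 and 7.43 FPKM in shControl cells. Haematopoietic markers summed to 1.87 and 2.22 FPKM in shLOXL2 and 3.11 and 2.58 FPKM in shControl cells, with CD3E listed at 0 throughout. Packaging-cell markers summed to at most 0.205 FPKM, with LIN28B, GAP43 and PAX2 listed at 0 throughout. The part of these cell types in the results was not tested.

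In shLOXL2 cells the glucose transporters SLC2A1 and SLC2A3, the glycolytic genes HK1, PFKM, ENO2 and PKM and the lactate exporter SLC16A3 were higher than in shControl cells. So were EPAS1 and VHL among the HIF regulators and VEGFA, CA12 and NDRG1 among the targets. HIF1A, EGLN1, PFKFB3 and ADM were lower. Of 42 members that reached a mean of 1 FPKM over the 4 libraries, 12 rose and 4 fell at a limma adjusted p below 0.05, where 8.35% of all 16987 genes tested were called higher and 8.54% lower (16.9% in either direction). In the same fit, 10.4% of protein-coding genes were called higher and 10.4% lower, and 11.9% and 11.6% of those averaging 5 FPKM or more. The median log2 change was 0.13 over the 42 members and -0.0041 over all genes tested. After quantile normalisation the median of the members was 0.082, and with 1 library left out it ran from 0.064 to 0.15. A pseudocount of 1 was added to each FPKM before taking log2, so the changes of low genes are understated. The absolute log2 change of the 16 called members had a median of 0.35, against 0.44 for all called genes. With protein-coding genes fitted alone 18 members rose and 5 fell (19.0% and 19.4% of genes). With a prior that ignores the intensity trend 3 rose and 2 fell (5.45% and 6.02% of genes), and with no filter on low values also 3 and 2 (1.66% and 1.5% of genes).

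Both shLOXL2 libraries lay above both shControl libraries for 23 of the 42 members and below for 11, where this held for 31.8% and 32.8% of all genes tested (64.6% in either direction). With any 1 of the 4 libraries left out, 0 members passed limma's threshold. Such a fit has a single residual degree of freedom and takes the lone library to vary like the other group. At an unadjusted p below 0.05 there were 16 members without shControl replicate 1, 14 without shControl replicate 2, 22 without shLOXL2 replicate 1 and 16 without shLOXL2 replicate 2, of 42, where 23.5%, 23.1%, 30.4% and 30.2% of all genes tested did so in the same fits. The 16 called members kept their direction in each of these fits. In bulk RNA, fewer cells of a kind and less RNA per cell cannot be told apart.

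**Figure D1:**
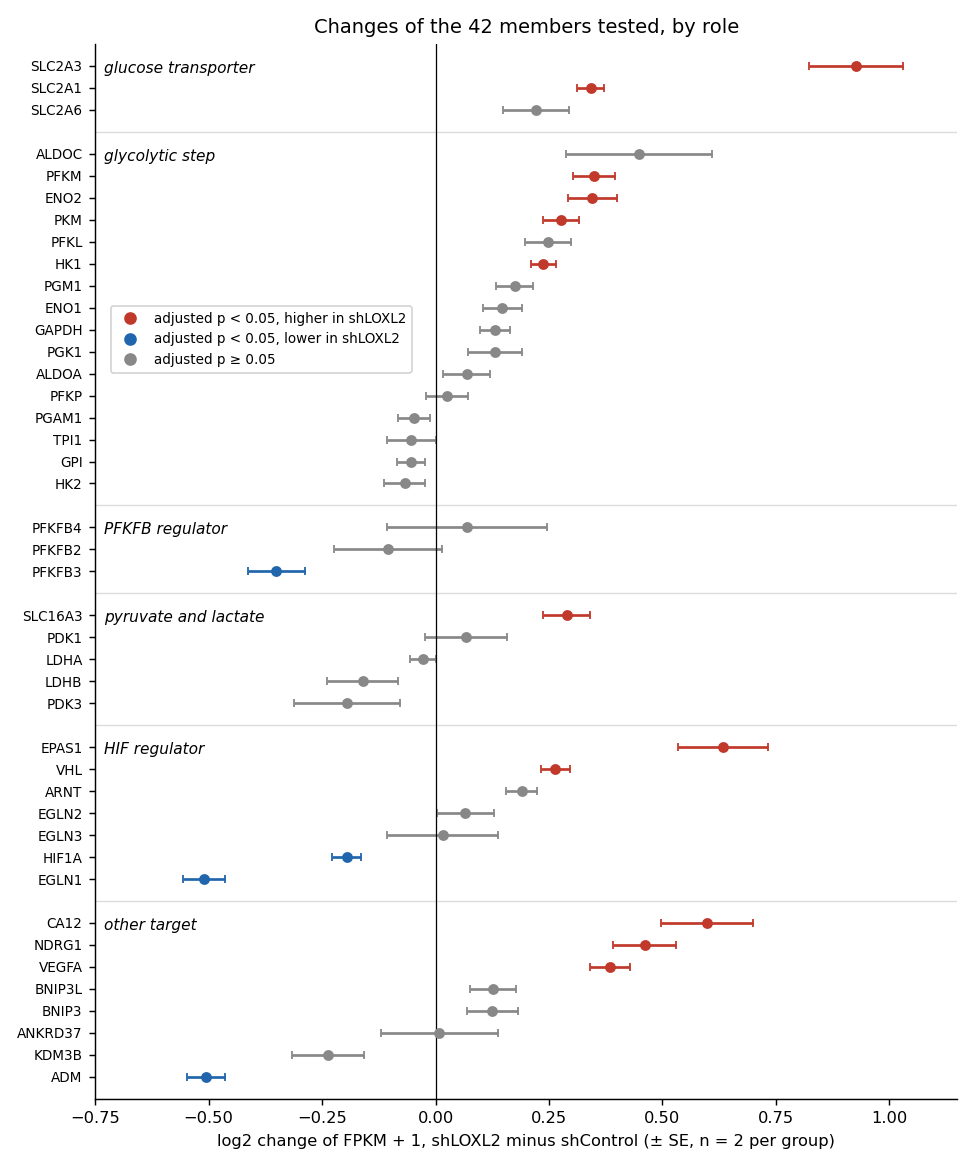
Log2 change of FPKM + 1 in shLOXL2 minus shControl cells for the 42 members tested, grouped by role, with bars for the SE (n = 2 libraries per group). Red points are the 12 called higher, blue points the 4 called lower and grey points the 26 that did not pass.

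Of the 3 glucose transporters, 2 rose in shLOXL2 cells and 0 fell, where 8.35% of all genes tested were called higher and 8.54% lower. SLC2A1 (GLUT1, ENSG00000117394), the main basal glucose transporter of many tumour cells, stood at 263 and 258 FPKM in shLOXL2 libraries, against 206 and 204 FPKM in shControl libraries. The groups did not overlap, which held for 64.6% of all genes tested in either direction. Its log2 rose by 0.34 ± 0.029 (SE over 2 libraries in each group, limma adjusted p = 0.0176). SLC2A3 (GLUT3, ENSG00000059804), a high-affinity transporter best known from neurons, stood at 21.2 and 21.4 FPKM in shLOXL2 libraries, against 11.8 and 9.74 FPKM in shControl libraries. Its mean was 1.98 times that of shControl cells, the largest ratio among the members called, with a log2 change of 0.93 ± 0.10 (limma adjusted p = 0.0239). With 1 library left out, the log2 change of SLC2A3 ran from 0.80 to 1.05 (adjusted p from 0.125 to 0.142) and that of SLC2A1 from 0.33 to 0.36 (adjusted p up to 0.166).

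SLC2A6, a transporter of lysosomal membranes, stood at 7.05 and 7.75 FPKM in shLOXL2 and 5.98 and 6.40 FPKM in shControl libraries and did not pass (limma adjusted p = 0.132). SLC2A1 remained the dominant transcript. Its level was 12.4 and 12.05 times that of SLC2A3 in shLOXL2 cells and 17.4 and 20.98 times in shControl cells. SLC2A14, a near-identical copy of SLC2A3, was below 0.04 FPKM in every library. The SLC2A3 pseudogenes, which may share its reads, summed to 11.4 and 11.97 FPKM in shLOXL2 and 8.83 and 8.98 FPKM in shControl cells. Their part in the change of SLC2A3 was not tested.

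**Figure D2:**
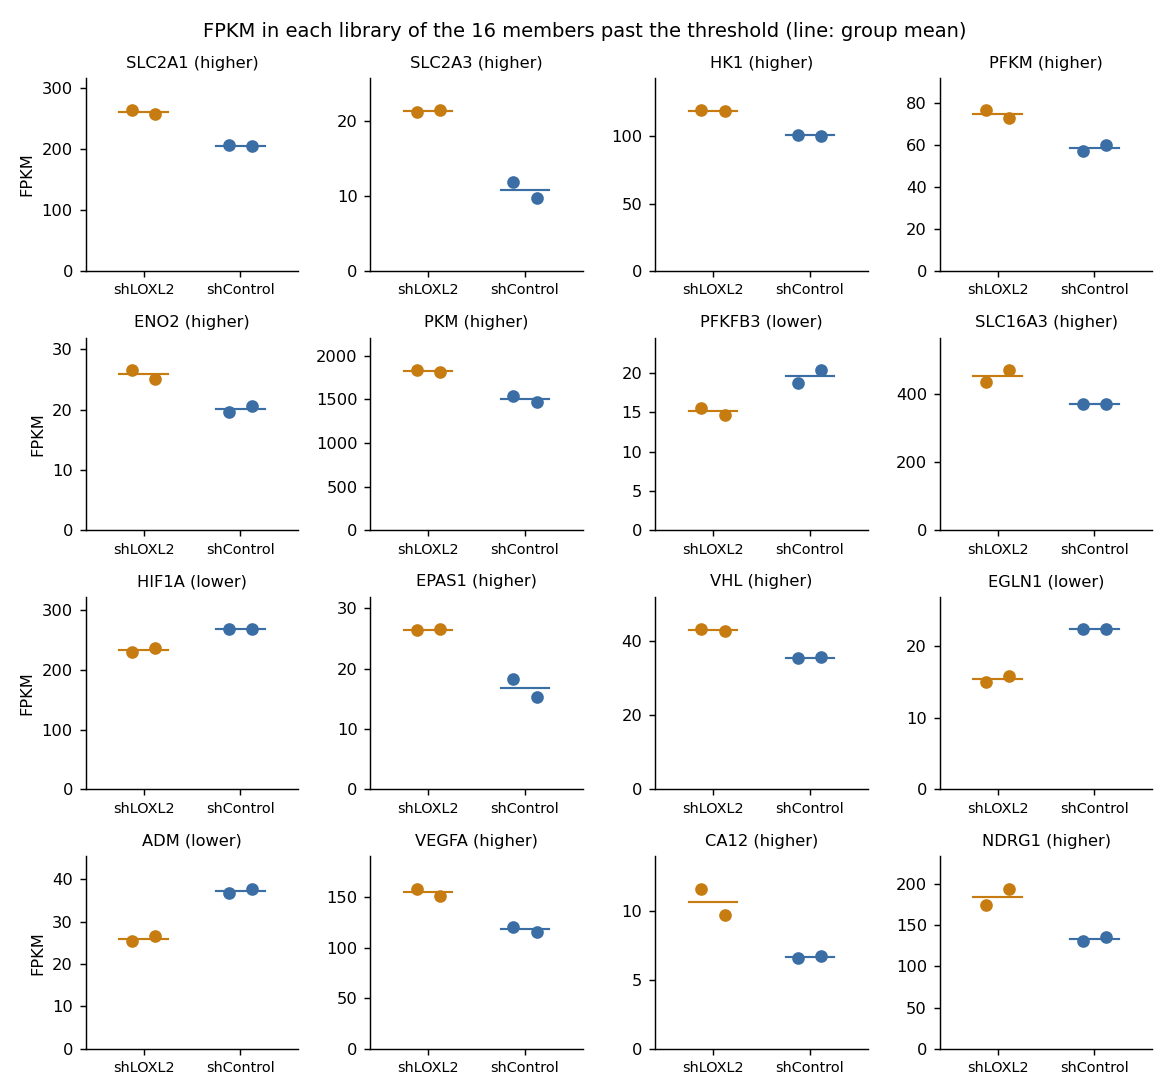
FPKM in each library of the 16 members past the threshold, with shLOXL2 left of shControl, each axis starting at 0 and a line at each group mean. The groups of each gene do not overlap, as for EGLN1 at 14.9 and 15.9 FPKM in shLOXL2 and 22.4 and 22.3 FPKM in shControl cells.

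Of the 16 genes of glycolytic steps, 4 rose and 0 fell, where 8.35% of all genes tested were called higher and 8.54% lower. The other 12 did not pass limma's threshold. An unadjusted p below 0.05 was found for 8 of 16, as for 35.9% of all genes and 43.3% of protein-coding genes tested. HK1 (ENSG00000156515), the hexokinase that traps glucose in most tissues, stood at 119.3 and 118.7 FPKM in shLOXL2 libraries, against 101.03 and 100.5 FPKM in shControl libraries. Replicates differed by less than 1 FPKM, and the log2 change was 0.24 ± 0.028 (limma adjusted p = 0.0253). HK2, the HIF-inducible hexokinase of many tumours, stood at 17.1 and 17.5 FPKM in shLOXL2 and 17.7 and 18.7 FPKM in shControl libraries. Its log2 change had a 95% interval of -0.20 to 0.066 (limma adjusted p = 0.370). The ratio of HK1 to HK2 was 6.98 and 6.77 in shLOXL2 and 5.69 and 5.39 in shControl cells, groups that do not overlap, although an exact permutation test of 2 against 2 libraries cannot give a p below 0.333.

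Phosphofructokinase, the committing step, has 3 isozymes that are known to assemble into mixed tetramers. PFKM (ENSG00000152556), the muscle isozyme, stood at 76.4 and 72.9 FPKM in shLOXL2 libraries, against 56.9 and 59.9 FPKM in shControl libraries (log2 0.35 ± 0.047, SE, limma adjusted p = 0.0303). It did not pass with no filter on low values, with the prior that ignores the trend or with a block for replicate number. SENP1 overlaps PFKM in RefSeq and stood at 10.1 and 10.2 FPKM in shLOXL2 and 12.3 and 11.7 FPKM in shControl libraries. PFKL, the liver isozyme, stood at 47.1 and 48.7 FPKM in shLOXL2 and 38.8 and 41.6 FPKM in shControl libraries without passing (limma adjusted p = 0.0600). PFKP, the platelet isozyme and the most abundant, stood at 152 and 163 FPKM in shLOXL2 and 155.04 and 154.8 FPKM in shControl libraries, with overlapping groups. As a share of the summed FPKM of the isozymes, PFKM made up 27.7% and 25.6% in shLOXL2 and 22.7% and 23.4% in shControl cells, and PFKP 55.2% and 57.3% in shLOXL2 and 61.8% and 60.4% in shControl cells.

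The lower steps of the pathway held the most abundant members. ENO1, GAPDH, PKM, ALDOA and PGK1 had more FPKM than 99.7% or more of protein-coding genes. PKM (ENSG00000067225), the pyruvate kinase of most dividing cells, stood at 1840.05 and 1812 FPKM in shLOXL2 libraries, against 1538 and 1475 FPKM in shControl libraries (log2 0.28 ± 0.040, SE, limma adjusted p = 0.0332). It was the most abundant member to pass. The table gives genes and not isoforms, so the M1 and M2 forms of PKM were not separated. ENO2 (ENSG00000111674), the enolase of neurons and a frequent tumour isozyme, stood at 26.6 and 25.1 FPKM in shLOXL2 libraries, against 19.6 and 20.7 FPKM in shControl libraries (log2 0.35 ± 0.054, limma adjusted p = 0.0386). Neither PKM nor ENO2 passed with no filter on low values, with the prior that ignores the trend or with a block for replicate number. ENO1, the common enolase, stood at 1881 and 1986 FPKM in shLOXL2 and 1736 and 1753 FPKM in shControl libraries and did not pass (limma adjusted p = 0.111). Its log2 change of 0.15 was 0.046 after quantile normalisation (limma adjusted p = 0.338).

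GAPDH, a frequent normalising gene, stood at 1715 and 1747 FPKM in shLOXL2 and 1582 and 1579 FPKM in shControl libraries. Its groups did not overlap, yet it did not pass (log2 0.13, 95% interval 0.035 to 0.23, limma adjusted p = 0.0829). After quantile normalisation the log2 change of GAPDH was 0.065 (limma adjusted p = 0.255). ALDOA, the main aldolase, stood at 1676 and 1801 FPKM in shLOXL2 and 1640.1 and 1673 FPKM in shControl libraries (limma adjusted p = 0.421). Its log2 change of 0.069 was -0.014 after quantile normalisation. ALDOC, the brain aldolase, was far lower, at 3.27 and 4.52 FPKM in shLOXL2 and 2.66 and 2.46 FPKM in shControl libraries. The other members, GPI, TPI1, PGK1, PGAM1 and PGM1, a phosphoglucomutase that links glycolysis to glycogen, had log2 changes between -0.054 and 0.17 and did not pass.

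PGAM1, the common phosphoglycerate mutase, stood at only 15.8 and 16.01 FPKM in shLOXL2 and 16.4 and 16.5 FPKM in shControl libraries, between PGK1 at 1029 FPKM or more and ENO1 at 1736 FPKM or more. The table lists EEF1A1, a gene used by every cell, at 0 in all 4 libraries, so a low level in this table may not be the true one. For PGAM1 itself the 13 pseudogenes in the table summed to no more than 1.76 FPKM in any library. Processed pseudogenes are numerous in this pathway. The 64 GAPDH pseudogenes in the table summed to 541 and 555 FPKM in shLOXL2 and 498 and 496 FPKM in shControl cells, and the 5 of PKM to 171 and 175 FPKM in shLOXL2 and 149 and 151 FPKM in shControl cells. TPI1P1 averaged 223 FPKM beside its parent gene TPI1 at 285 and 310 FPKM in shLOXL2 and 305 and 311 FPKM in shControl cells. Reads shared between these copies make the levels of GAPDH, PKM, ENO1, TPI1 and LDHA uncertain, and the part of the copies in any change was not tested.

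**Figure D3:**
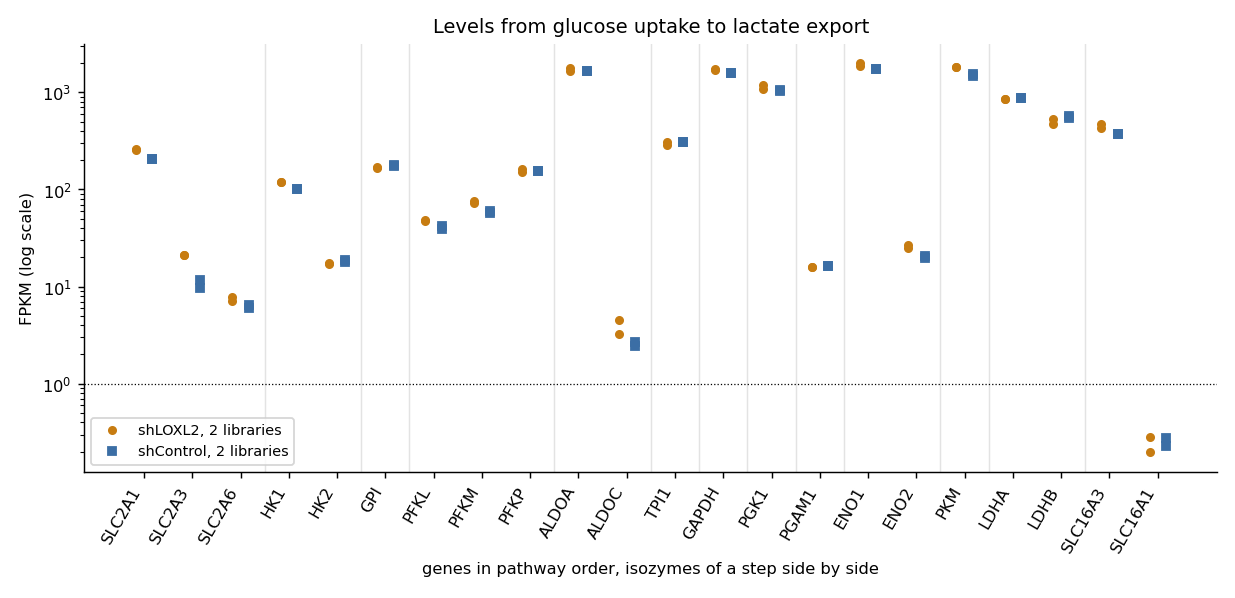
FPKM on a log scale in each library for 22 members from glucose uptake to lactate export, shLOXL2 circles left of shControl squares, with a dotted line at the filter of 1 FPKM. Levels span from under 0.3 FPKM for SLC16A1 to 1736 FPKM or more for ENO1, and PGAM1 stands near 16 FPKM between far higher neighbours.

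The PFKFB enzymes make and break fructose 2,6-bisphosphate, the strongest activator of phosphofructokinase. PFKFB3 (ENSG00000170525), the form with the highest kinase activity, stood at 15.6 and 14.7 FPKM in shLOXL2 libraries, against 18.8 and 20.4 FPKM in shControl libraries. It fell by 0.35 ± 0.063 on the log2 scale (SE, limma adjusted p = 0.0473), close to the threshold. PFKFB3 did not pass with quantile normalisation, with upper-quartile scaling, with a pseudocount of 5 FPKM or with no filter on low values. Nor did it pass with the prior that ignores the trend or with a block for replicate number. PFKFB4, a hypoxia-inducible form, stood at 9.36 and 9.85 FPKM in shLOXL2 and 10.8 and 7.66 FPKM in shControl libraries. The shControl replicates of PFKFB4 differed more than the group means, and the sign of its change turned without shControl replicate 2 (log2 -0.15, against 0.070 with all libraries). PFKFB2, the heart form, stood at 5.21 and 5.06 FPKM in shLOXL2 and 6.27 and 4.99 FPKM in shControl libraries, again with overlap.

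Of the genes of pyruvate and lactate handling, SLC16A3 was the sole gene to pass. SLC16A3 (MCT4, ENSG00000141526), the lactate exporter of glycolytic cells, stood at 434 and 471 FPKM in shLOXL2 libraries, against 370.5 and 369 FPKM in shControl libraries (log2 0.29 ± 0.052, SE, limma adjusted p = 0.0482). SLC16A3 did not pass with a pseudocount of 5 FPKM, no filter on low values, the prior that ignores the trend or a block for replicate number. In RefSeq it overlaps CSNK1D, which stood at 59.7 and 53.96 FPKM in shLOXL2 and 53.5 and 50.3 FPKM in shControl cells. SLC16A1 (MCT1), the other main lactate carrier, was at 0.283 and 0.196 FPKM in shLOXL2 and 0.276 and 0.226 FPKM in shControl libraries, below the filter and untested. The line is known for lacking MCT1.

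LDHA and LDHB encode the muscle and heart subunits of lactate dehydrogenase. LDHA stood at 856 and 854 FPKM in shLOXL2 and 875 and 868 FPKM in shControl libraries, with a 95% interval of -0.11 to 0.060 for its log2 change (limma adjusted p = 0.552). After quantile normalisation LDHA passed toward lower values, at a log2 change of -0.13 (adjusted p = 0.0442). LDHB stood at 472 and 533 FPKM in shLOXL2 and 545 and 577 FPKM in shControl libraries and did not pass (limma adjusted p = 0.249). The ratio of LDHA to LDHB overlapped between the groups, at 1.81 and 1.60 in shLOXL2 and 1.61 and 1.50 in shControl cells. PDK1 and PDK3, mitochondrial kinases that inhibit pyruvate dehydrogenase, did not pass. PDK1 stood at 11.5 and 12.5 FPKM in shLOXL2 and 12.2 and 10.6 FPKM in shControl libraries, and PDK3 at 2.89 and 2.36 FPKM in shLOXL2 and 3.27 and 3.02 FPKM in shControl libraries.

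Among the HIF regulators the transcripts of the alpha subunits moved in opposite directions. HIF1A (ENSG00000100644), the alpha subunit present in most cells, stood at 229.6 and 237 FPKM in shLOXL2 libraries, against 268 and 267 FPKM in shControl libraries. It fell by 0.20 ± 0.032 on the log2 scale (SE, limma adjusted p = 0.0415). EPAS1 (HIF-2 alpha, ENSG00000116016), the subunit of endothelial and some epithelial cells, stood at 26.4 and 26.5 FPKM in shLOXL2 libraries, against 18.3 and 15.2 FPKM in shControl libraries, and rose by 0.63 ± 0.10 (limma adjusted p = 0.0388). HIF1A stayed the more abundant transcript, at 8.70 and 8.93 times EPAS1 in shLOXL2 and 14.6 and 17.5 times in shControl cells. Neither subunit passed with no filter on low values, with the prior that ignores the trend or with a block for replicate number. With 1 library left out the log2 change of HIF1A ran from -0.22 to -0.17 (adjusted p from 0.107 to 0.203) and that of EPAS1 from 0.51 to 0.76 (adjusted p from 0.143 to 0.179).

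The pseudogene HIF1AP1 averaged 258 FPKM, about as much as HIF1A itself, and stood at 234 FPKM in both shLOXL2 libraries, against 283 and 280.2 FPKM in shControl libraries. Reads of the gene and of this copy may be split between them, so the level of HIF1A is uncertain, while both entries were lower in shLOXL2 cells. The antisense transcript HIF1A-AS3 overlaps the gene and stood at 2.92 and 3.18 FPKM in shLOXL2 and 4.94 and 3.83 FPKM in shControl cells.

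The genes that destabilise HIF alpha also diverged. EGLN1 (PHD2, ENSG00000135766), the main oxygen-sensing prolyl hydroxylase and itself a HIF target, stood at 14.9 and 15.9 FPKM in shLOXL2 libraries, against 22.4 and 22.3 FPKM in shControl libraries. It fell by 0.51 ± 0.046 on the log2 scale (SE, limma adjusted p = 0.0188), and passed also with no filter on low values and under the prior that ignores the trend. VHL (ENSG00000134086), which recognises hydroxylated HIF alpha, stood at 43.1 and 42.5 FPKM in shLOXL2 libraries, against 35.2 and 35.7 FPKM in shControl libraries (log2 0.26 ± 0.032, limma adjusted p = 0.0268). The ratio of EGLN1 to VHL was 0.347 and 0.374 in shLOXL2 and 0.635 and 0.626 in shControl cells. EGLN2, a second hydroxylase, stood at 62.5 and 69.2 FPKM in shLOXL2 and 63.1 and 62.5 FPKM in shControl libraries, and EGLN3, the most hypoxia-inducible one, at 1.63 and 1.62 FPKM in shLOXL2 and 1.72 and 1.48 FPKM in shControl libraries. Neither passed. ARNT, the shared beta subunit, stood at 24.7 and 24.2 FPKM in shLOXL2 and 21.4 and 21.2 FPKM in shControl libraries, just outside the threshold (log2 0.19, limma adjusted p = 0.0501). ARNT did pass toward higher values with a pseudocount of 0.1 FPKM, with a filter of 5 FPKM, with quantile normalisation and with protein-coding genes alone (adjusted p from 0.0333 to 0.0499).

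**Figure D4:**
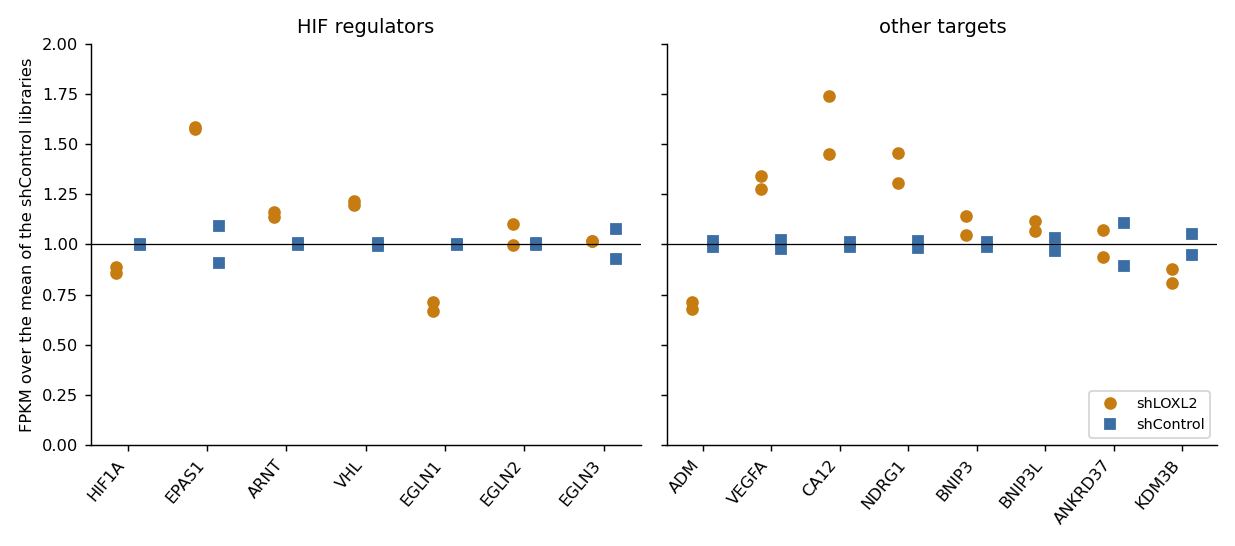
FPKM of each library over the mean of the shControl libraries for HIF regulators and other listed targets with a mean of at least 1 FPKM, shLOXL2 circles left of shControl squares, axis from 0. EPAS1, VHL, VEGFA, CA12 and NDRG1 lie above the line in shLOXL2 cells, and HIF1A, EGLN1 and ADM below it.

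Other genes listed as hypoxia targets went both ways. VEGFA (ENSG00000112715), the angiogenic growth factor, stood at 158 and 151.03 FPKM in shLOXL2 libraries, against 121 and 116 FPKM in shControl libraries (log2 0.38 ± 0.045, SE, limma adjusted p = 0.0249). ADM (ENSG00000148926), the vasodilator peptide adrenomedullin, stood at 25.4 and 26.6 FPKM in shLOXL2 libraries, against 36.8 and 37.9 FPKM in shControl libraries, and fell by 0.51 ± 0.042 on the log2 scale (limma adjusted p = 0.0171). Its adjusted p was the smallest of any member. The ratio of VEGFA to ADM was 6.24 and 5.68 in shLOXL2 and 3.29 and 3.06 in shControl cells. NDRG1 (ENSG00000104419), a stress-responsive gene linked to differentiation and metastasis, stood at 174 and 195 FPKM in shLOXL2 libraries, against 131 and 136 FPKM in shControl libraries (log2 0.46 ± 0.069, limma adjusted p = 0.0357). It did not pass with no filter on low values, with the prior that ignores the trend or with a block for replicate number.

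The membrane carbonic anhydrases, which buffer acid outside the cell, were low. CA12 (ENSG00000074410), also a gene of luminal breast cells, stood at 11.6 and 9.69 FPKM in shLOXL2 libraries, against 6.60 and 6.75 FPKM in shControl libraries (log2 0.60 ± 0.10, SE, limma adjusted p = 0.0434). It did not pass with a pseudocount of 5 FPKM, with no filter on low values, with the prior that ignores the trend or with a block for replicate number. CA9, a widely used hypoxia marker, was at 0.438 and 0.898 FPKM in shLOXL2 and 1.37 and 0.393 FPKM in shControl libraries and was below the filter. BNIP3 and BNIP3L, mitophagy receptors, stood at 59.6 and 65.0 FPKM and at 102 and 107 FPKM in shLOXL2 libraries, against 56.3 and 57.6 FPKM and 98.996 and 93.0 FPKM in shControl libraries, and did not pass. The 42 pseudogenes of BNIP3 summed to more than the gene itself, at 93.55 and 98.7 FPKM in shLOXL2 and 87.6 and 86.3 FPKM in shControl libraries, so its level is uncertain. ANKRD37 overlapped between groups, at 4.73 and 5.39 FPKM in shLOXL2 and 5.58 and 4.50 FPKM in shControl libraries. KDM3B, a histone H3 lysine 9 demethylase, stood at 22.7 and 20.8 FPKM in shLOXL2 and 27.1 and 24.4 FPKM in shControl libraries (limma adjusted p = 0.137).

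Promoters of the members were read for the core of the hypoxia response element, the letters ACGTG or GCGTG on either strand, the letters that HIF complexes are known to recognise. The sequences are the 250 bases upstream of the RefSeq gene start (GRCh38.p14), found for 37 of the 44 members. A single window per gene was read, and whether its start is the one used in these cells was not tested. The core was present in 23 of these 37 windows (62.2%), in 43.1% of all 27305 promoter windows of the same length and in 50.5% of those of protein-coding genes. Of the 12 higher members only 8 had a window, with none for SLC2A3, VEGFA, VHL and NDRG1. The groups are therefore not set against each other. The core was found for 4 of 4 lower members, ADM, EGLN1, HIF1A and PFKFB3. It was found for 3 of 8 higher members, CA12, ENO2 and EPAS1, and for 15 of 24 members that did not pass. The last of the 37 was below the filter. A match describes these letters and is no site of binding. ACGTG on both strands at once is the E-box CACGTG, which other factors bind. The 4 lower members are shown with ENO2 as a higher member, SLC2A1 as a higher member with no match in the window, and LDHA, which did not pass, with matches at 3 places. Capitals mark the core on either strand.
ADM, chr11:10304823-10305072 (+): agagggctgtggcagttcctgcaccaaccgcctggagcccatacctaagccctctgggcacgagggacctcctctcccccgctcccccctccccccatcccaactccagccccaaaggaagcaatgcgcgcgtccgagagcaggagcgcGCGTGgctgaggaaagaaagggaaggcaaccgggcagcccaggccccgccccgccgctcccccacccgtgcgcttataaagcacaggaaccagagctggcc
EGLN1, chr1:231422288-231422537 (-): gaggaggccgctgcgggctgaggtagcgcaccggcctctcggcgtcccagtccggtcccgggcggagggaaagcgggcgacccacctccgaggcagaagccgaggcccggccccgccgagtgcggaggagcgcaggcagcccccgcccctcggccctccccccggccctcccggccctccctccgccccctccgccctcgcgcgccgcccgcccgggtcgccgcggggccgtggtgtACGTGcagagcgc
HIF1A, chr14:61695263-61695512 (+): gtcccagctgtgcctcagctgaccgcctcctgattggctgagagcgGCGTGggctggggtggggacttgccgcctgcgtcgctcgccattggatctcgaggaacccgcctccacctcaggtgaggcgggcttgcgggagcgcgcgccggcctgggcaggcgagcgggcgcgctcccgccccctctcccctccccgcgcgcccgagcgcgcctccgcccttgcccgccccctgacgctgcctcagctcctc
PFKFB3, chr10:6144671-6144920 (+): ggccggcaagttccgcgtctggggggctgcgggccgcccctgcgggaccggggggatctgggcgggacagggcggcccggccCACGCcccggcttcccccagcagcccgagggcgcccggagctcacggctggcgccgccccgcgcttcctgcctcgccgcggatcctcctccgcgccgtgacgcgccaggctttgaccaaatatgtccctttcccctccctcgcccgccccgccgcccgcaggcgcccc
ENO2, chr12:6914330-6914579 (+): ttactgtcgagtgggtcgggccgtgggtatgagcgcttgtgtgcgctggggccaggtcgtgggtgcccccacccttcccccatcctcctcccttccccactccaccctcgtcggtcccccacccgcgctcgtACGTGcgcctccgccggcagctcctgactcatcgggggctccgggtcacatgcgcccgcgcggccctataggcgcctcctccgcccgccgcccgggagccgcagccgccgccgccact
SLC2A1, chr1:42958869-42959118 (-): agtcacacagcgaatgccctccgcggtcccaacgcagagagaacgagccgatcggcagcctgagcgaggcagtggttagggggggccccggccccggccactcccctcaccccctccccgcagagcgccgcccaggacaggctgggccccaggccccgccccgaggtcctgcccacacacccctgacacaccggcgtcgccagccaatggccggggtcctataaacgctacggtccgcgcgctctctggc
LDHA, chr11:18394313-18394562 (+): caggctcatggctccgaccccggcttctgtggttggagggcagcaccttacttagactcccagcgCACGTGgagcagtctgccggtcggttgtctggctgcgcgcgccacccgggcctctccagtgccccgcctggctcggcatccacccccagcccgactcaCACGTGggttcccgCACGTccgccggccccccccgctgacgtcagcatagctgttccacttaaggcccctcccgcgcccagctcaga

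In ADM the match lay 101 bases upstream of the start, in a gene that was lower in shLOXL2 cells, and in ENO2 a match 118 bases upstream stood before a gene that was higher. In EGLN1 the match lay 13 bases upstream. The window of LDHA, with matches at 3 places, stood before a gene with a log2 change of -0.027. So a match in this window was found before members that rose, fell and did not pass.

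The neighbouring routes of glucose carbon were read from 7 lists of other genes of the pathway. Over all lists 16 of 125 tested genes rose and 12 fell, where 10.4% of protein-coding genes in the same fit were called higher and 10.4% lower. Among those averaging 5 FPKM or more, a stricter filter, the shares were 11.9% and 11.6%. The counts of single lists are a description. With 1 library left out, at most 2 of the 125 rose and 0 fell. In the pentose phosphate pathway, which branches from glucose 6-phosphate, 3 of 8 tested genes rose and 0 fell (limma, with a median log2 change of 0.092). The transketolase gene TKT stood at 233 and 240.2 FPKM in shLOXL2 and 169 and 173 FPKM in shControl libraries (limma adjusted p = 0.0146), and TALDO1, the transaldolase gene, also rose (log2 0.26, limma adjusted p = 0.0372). Of 12 tested glycogen genes 2 rose and 1 fell. PYGB, the brain-form glycogen phosphorylase, stood at 176 and 167 FPKM in shLOXL2 libraries, against 82.8 and 83.6 FPKM in shControl libraries (log2 1.04 ± 0.039, limma adjusted p = 0.0115), and PYGL, the liver form, rose by 0.30 (limma adjusted p = 0.0481). PPP1R3E, a glycogen-targeting subunit of protein phosphatase, fell to 1.73 and 1.65 FPKM in shLOXL2 libraries, against 3.22 and 3.73 FPKM in shControl libraries (limma adjusted p = 0.0342).

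Of 16 tested genes of pyruvate entry and oxidation, 1 rose and 2 fell. In the same fit 10.4% of protein-coding genes were called higher and 10.4% lower, so this count and those of the next lists are a description. BSG, the chaperone that carries MCT4 to the membrane, rose with SLC16A3, to 394 and 398 FPKM in shLOXL2 libraries, against 342 and 346 FPKM in shControl libraries (limma adjusted p = 0.0334). SLC16A7 (MCT2), a high-affinity importer, fell to 2.65 and 3.15 FPKM in shLOXL2 libraries, against 5.95 and 5.41 FPKM in shControl libraries (limma adjusted p = 0.0302). PDPR, a regulator of pyruvate dehydrogenase phosphatase, fell to 4.05 and 4.01 FPKM in shLOXL2 libraries, against 5.64 and 5.81 FPKM in shControl libraries (limma adjusted p = 0.0314). Of 22 tested genes of the tricarboxylic acid cycle, 2 rose and 3 fell. IDH1 and IDH2, isocitrate dehydrogenases, fell to 70.2% and 72.6% of the shControl mean in shLOXL2 cells (limma adjusted p = 0.0166 and 0.0246), and the fumarase gene FH to 82.4% (limma adjusted p = 0.0271). Of 15 tested further isozymes and transporters, 1 rose, PGM2L1 (log2 0.63, limma adjusted p = 0.0237), and 0 fell.

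Of 37 tested further HIF target genes 6 rose and 5 fell, at a median log2 change of -0.0090. Of protein-coding genes in the same fit 10.4% were called higher and 10.4% lower, and 11.9% and 11.6% of those averaging 5 FPKM or more. These counts are therefore a description. The cyclin gene CCNG2 stood at 28.1 and 27.04 FPKM in shLOXL2 libraries, against 15.5 and 15.2 FPKM in shControl libraries (limma adjusted p = 0.0124), and the repressor gene BHLHE41 rose by 0.69 (limma adjusted p = 0.0145). LOX, a relative of LOXL2 that crosslinks collagen, stood at 2.82 FPKM in both shLOXL2 libraries, against 5.97 and 5.86 FPKM in shControl libraries (limma adjusted p = 0.0143). Of 15 tested HIF pathway components 1 rose and 1 fell. ELOB, a partner of VHL in its ubiquitin ligase, stood at 625 and 670.1 FPKM in shLOXL2 and 507 and 512 FPKM in shControl libraries (limma adjusted p = 0.0314). ARNT2, a relative of ARNT, stood at 4.78 and 4.32 FPKM in shLOXL2 and 7.92 and 6.89 FPKM in shControl libraries (limma adjusted p = 0.0402). HIF1AN, the asparaginyl hydroxylase of HIF, did not pass (limma adjusted p = 0.154), nor did KDM3A, the hypoxia-inducible relative of KDM3B (limma adjusted p = 0.124).

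As a whole the 44 members summed to 12234 and 12735 FPKM in shLOXL2 cells and to 11474 and 11450.3 FPKM in shControl cells. That was 2.01% and 2.05% of the summed FPKM of protein-coding genes in shLOXL2 cells and 1.95% and 1.93% in shControl cells. Of the FPKM sum of all genes it was 0.920% and 0.930% in shLOXL2 cells and 0.922% and 0.937% in shControl cells, so with this total the groups overlapped. Of the summed FPKM of protein-coding genes, the 16 glycolytic step genes alone made up 1.51% and 1.54% in shLOXL2 and 1.44% and 1.43% in shControl cells. These sums rest mainly on ENO1, ALDOA, PKM, GAPDH and PGK1, and library sums also differed between the groups.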

How the data were processed

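The authors deposited FPKM per gene with 1 column per RNA library, and the submitters' processing notes name Bowtie, Cufflinks and GRCh37, without roles or versions. The annotation, strand handling and read depth are not given in the sources used here, so no counting interval is given and FPKM, not counts, were tested. Columns were matched to samples by group letters and replicate digit. Symbols were found for 39694 of 63657 gene identifiers and for all 44 members. The members, lists and tests were chosen with earlier results of these data known.

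Values of log2(FPKM + 1) for the 16987 genes averaging 1 FPKM or more were fitted with limma 3.58.1 in R 4.3.3 (two-sided moderated test whose variance prior follows intensity, Benjamini-Hochberg over all genes tested, threshold 0.05, shLOXL2 minus shControl). The script was tested on simulated data with 200 changed genes, where 55% of changes of log2 1 and 88% of changes of log2 2 were recovered. The 200 were drawn from genes averaging 5 FPKM or more, and 6 unchanged genes were called. In the data 2869 genes were called, far more than were changed there, so these rates may not hold for the data. Smaller changes were not simulated, so a member that did not pass may still have changed. Members past the threshold are given in full, with the 2 most abundant members of each role and those below the filter. From the other lists up to 4 called genes with the smallest p are named, except a few genes that are counted but not reported here by name, and the uncalled relatives HIF1AN, KDM3A and SLC2A14 were added after their values were seen. Replicates of a group correlated at a Pearson r of 0.943 (shLOXL2) and 0.944 (shControl) across genes. No gene tested had the same FPKM above 0 in any 2 libraries. The alternatives were pseudocounts of 0.1 and 5 FPKM, a filter of 5 FPKM or none, 2 scalings, the variance prior, protein-coding genes alone, a replicate block and each library left out. Promoter sequences and overlapping genes come from RefSeq (GRCh38.p14), a build other than that of the reads. Peak lists in GRCh37 were not used, since no GRCh37 annotation was used here.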

Additional observations from a re-analysis of the deposited data

How the results depend on the processing

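The direction of LOXL2 and of the 16 called members held under all 14 alternatives run, and which calls passed did not. Without a filter on low values 601 genes rose and 542 fell, with 3 and 2 members, and SLC2A1, HK1, VHL, EGLN1 and ADM kept their calls. With a variance prior without a trend 926 genes rose, with 3 members higher and 2 lower, and SLC2A1, SLC2A3, EGLN1, ADM and VEGFA kept theirs. PFKM, ENO2, PKM, PFKFB3, SLC16A3, HIF1A, EPAS1, CA12 and NDRG1 passed in neither of these fits. With protein-coding genes alone 2136 genes rose and 2178 fell, or 19.0% and 19.4%, and 18 members rose and 5 fell, all 16 among them.

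The replicate block left 1 residual degree of freedom and 0 genes past the threshold in either direction (5519 at an unadjusted p below 0.05), 0 members higher and 0 lower (23 at an unadjusted p below 0.05), and an adjusted p of 0.0713 for LOXL2 at a log2 change of -2.56. The deviations of same-numbered libraries correlated at -0.0013 across the genes tested. A correlation over all genes cannot show whether same-numbered libraries were prepared as pairs. With each library left out in turn, 18 to 220 genes rose and 70 to 217 fell, 0 members passed, and LOXL2 ran from -2.72 to -2.41. LOXL2 did not pass without shControl replicate 1 (adjusted p = 0.157) or 2 (0.154).

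Of the 26 members that had not passed, 17 kept their sign wherever they were tested. It turned for ALDOA (-0.014) and PFKP (-0.031) with quantile normalisation. With each library left out in turn the log2 change crossed 0 for ANKRD37 (-0.12 to 0.14), EGLN2 (-0.0071 to 0.14), EGLN3 (-0.050 to 0.083), PDK1 (-0.025 to 0.16), PFKFB2 (-0.24 to 0.034), PFKFB4 (-0.15 to 0.29), PFKP (-0.024 to 0.075) and TPI1 (-0.11 to 0.0061). The other pathway genes, of which 16 rose and 12 fell, gave 6 and 4 without a filter, 9 and 10 with the prior without a trend, 26 and 25 with protein-coding genes alone and 0 and 0 under the replicate block. The cause of these shifts was not tested. Scalings moved the median of all genes to between -0.0058 and 0.0019. The median of the members was 0.082 with quantile normalisation and 0.12 with upper-quartile scaling. Depth is unknown, and low genes such as SLC16A1, CA9 and EGLN3 are the least certain.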
